A study of Mus musculus with 6 samples.

Results

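The granulocyte-lineage cells described here are the cells of the 89-week bone marrow section that held 3 or more counts summed over Elane, Ctsg, Mpo, Prtn3 and Fcnb, genes for granule proteins and a lectin of developing neutrophils. They numbered 17400 of the 143810 segmented cells, or 12.1% (exact 95% interval 11.9 to 12.3, counting error only). The section, 5 µm thick, came from leg bone marrow of wild-type C57BL/6 mice aged 89 weeks, and the number of mice behind it is not given. The marrow had been fixed in the bone with paraformaldehyde, taken out of thick frozen slices and embedded in paraffin. It was read by Xenium, an imaging assay that counts single RNA molecules with gene-specific probes in segmented cells. All 5 rule genes were on the panel of 5050 genes, among its 44 custom targets. The study imaged 6 sections, 1 per condition, so no test between conditions or over replicate animals could be made, and every interval below covers counting error only. Levels of different genes cannot be ranked against each other, since probe sets differ between genes.

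Neutrophils arise in the marrow from granulocyte-monocyte progenitors. At the promyelocyte step the cells make the primary (azurophilic) granules, which are filled with myeloperoxidase (Mpo) and the serine proteases neutrophil elastase (Elane), proteinase 3 (Prtn3) and cathepsin G (Ctsg), and the transcription of these genes then stops. Secondary and tertiary granule proteins such as lactoferrin (Ltf) and lipocalin 2 (Lcn2) follow in myelocytes and later stages, and the mature cells carry chemokine and formyl peptide receptors. Ficolin B (Fcnb) is a lectin of the innate immune system made by developing myeloid cells. Monocyte progenitors and immature basophils can also carry part of the primary granule transcripts, so the rule is wider than neutrophils. It also left most cells with late neutrophil genes (Ltf, Lcn2, Cd177, Ly6g, Csf3r, Cxcr2 and Mmp9) among the other cells. Of 36305 cells with 3 or more counts of these genes, 14.4% met the rule and 31082 did not. The share that met the rule is therefore not the share of all granulocytes.

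The sequences before the starts of the rule genes are shown because these genes chose the cells. Elane (chr10:79886312-79888216) and Prtn3 (chr10:79879667-79883174) are neighbours, with 3137 bases between the annotated genes, whereas Mpo (chr11:87793784-87804412), Ctsg (chr14:56099885-56102574) and Fcnb (chr2:28076479-28084910) lie on other chromosomes. The stretches below are from RefSeq, build GRCm38.p6, 5′ to 3′ in the direction of the gene, 250 bases each and 218 for Fcnb, whose last 32 bases lie inside the annotated gene and were left out. They span chr11:87793534-87793783 on the plus strand for Mpo, chr10:79886062-79886311 on the plus strand for Elane, chr10:79879417-79879666 on the plus strand for Prtn3, chr14:56102575-56102824 on the minus strand for Ctsg and chr2:28084911-28085128 on the minus strand for Fcnb. Capitals mark AGGAAGT, a motif with the GGAA core that ETS-family factors such as PU.1 (Spi1) bind.
Mpo: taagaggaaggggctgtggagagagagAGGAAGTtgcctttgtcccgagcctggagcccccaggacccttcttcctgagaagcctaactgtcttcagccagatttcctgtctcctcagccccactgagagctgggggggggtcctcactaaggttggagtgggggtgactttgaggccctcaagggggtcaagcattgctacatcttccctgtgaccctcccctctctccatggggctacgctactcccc
Elane: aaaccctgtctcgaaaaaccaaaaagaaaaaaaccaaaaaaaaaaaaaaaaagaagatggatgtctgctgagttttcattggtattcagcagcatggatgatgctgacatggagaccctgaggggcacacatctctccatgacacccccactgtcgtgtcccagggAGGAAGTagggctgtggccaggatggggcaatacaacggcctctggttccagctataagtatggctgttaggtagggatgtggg
Prtn3: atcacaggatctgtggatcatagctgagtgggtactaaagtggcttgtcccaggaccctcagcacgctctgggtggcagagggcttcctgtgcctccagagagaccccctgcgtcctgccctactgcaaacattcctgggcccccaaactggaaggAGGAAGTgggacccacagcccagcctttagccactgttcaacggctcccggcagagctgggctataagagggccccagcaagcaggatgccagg
Ctsg: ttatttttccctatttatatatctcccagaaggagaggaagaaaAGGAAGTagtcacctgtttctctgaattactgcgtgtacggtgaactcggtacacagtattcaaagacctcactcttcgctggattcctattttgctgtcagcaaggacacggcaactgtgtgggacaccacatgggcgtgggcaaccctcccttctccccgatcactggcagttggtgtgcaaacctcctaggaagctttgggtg
Fcnb: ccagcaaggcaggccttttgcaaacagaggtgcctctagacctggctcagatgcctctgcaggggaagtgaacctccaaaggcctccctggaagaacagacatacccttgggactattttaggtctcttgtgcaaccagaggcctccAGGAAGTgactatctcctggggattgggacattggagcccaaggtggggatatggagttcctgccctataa
Each of the 5 stretches held AGGAAGT 1 time, in the direction of the gene. The match began 84 bases before the gene for Elane, 94 for Prtn3, 71 for Fcnb, 206 for Ctsg and 223 for Mpo. Of all 32851 stretches of 250 bases in the same table, 7.69% held it on either strand. The motif was picked after these sequences had been read, so the match is a description. TTGCNNAA, a C/EBP-type motif searched in the same way, was in the Fcnb stretch only, and in 9.56% of all stretches.

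The rule genes were seen together in most of the selected cells. Mpo gave 51.6% of their rule counts, Prtn3 16.8%, Elane 13.4%, Ctsg 11% and Fcnb 7.21%. The mean per cell was 8.05 ± 10.7 counts for Mpo (SD over cells), 2.63 ± 3.65 for Prtn3, 2.10 ± 3.14 for Elane, 1.71 ± 2.83 for Ctsg and 1.13 ± 2.00 for Fcnb. All of these values were chosen by the rule and carry no test. Of the cells, 15.5% held all 5 genes, 29.7% held 4 and 7.43% rested on 1 gene alone. Among selected cells with an Elane count, 80.2% also held Prtn3 and 94.0% held Mpo. Ctsg was seen in 46.9% of the cells with Fcnb and in 60.5% of those with Mpo, whereas Elane was in 69.3% and 67.7% and Prtn3 in 71.5% and 75.1%. Of all counts of a gene in the section, the selected cells held between 93.0% and 95.6% for the 4 granule genes and 75.8% for Fcnb.

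Rule counts were also found in cells with genes of other classes. Of 4348 cells with 3 or more counts of B cell genes, 12.0% held an Mpo count at a median depth of 150 counts, and 7.38% (exact 95% interval 6.62 to 8.20) met the rule. Among the selected cells 89.6% held Mpo at a median depth of 114, and among all other cells 4.54% at a median of 54. With every cell thinned to 50 counts, which left out 2204 of the selected and 59087 of the other cells, these shares were 76.1% and 2.94%. In unselected cells, the mean rule count was 0.0782 without a neighbour among the selected cells and 0.238, 0.393 and 0.517 with 1, 2 and 3 such neighbours, at median depths of 53, 55, 56 and 53 counts. The part that transcripts of adjoining cells have in the selection was not tested. At the edge of the rule lay 4355 cells with 2 rule counts and 2732 with exactly 3. Their level of Gfi1, a gene outside the rule, was 183 and 203 CPM, its counts per 1000000 counts outside the rule genes.

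The selected cells had more counts and larger outlines than the rest. A minimum of raw rule counts takes deep cells more readily, so part of the difference in depth is set by the rule. Their median total was 114 counts (quartiles 69 and 190) in 86 genes, against 54 counts (26 and 106) in 44 genes. The median cell outline covered 33.4 against 27.8 µm², and the nucleus 18.8 against 16.8 µm², a ratio of 1.12. This order turned when only cells with at least 50 counts were taken, where the ratio of the nuclear medians was 0.961. The nucleus took 57.8% of the outline in the median selected cell and 61.6% in the others. Outlines with 2 or more nuclei made up 2.60% of the selected and 1.11% of the other cells, and doublets were not called.

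Outside the rule, genes of myeloid progenitors and early granulocytes were among those with the highest ratios. A gene's level was its summed counts over a group of cells in the same unit, and the ratio is that of the selected cells over the 126410 others. Of 3129 genes with at least 200 counts in the section, 324 reached a ratio of 1.5 or more (10.4% of the genes tested) and 773 were at 1/1.5 or less (24.7%), with a median ratio of 0.968 over all of them. The whole 95% interval lay past that fold for 211 and 462 genes. These shares are the background for the counts given for gene groups below, and the lists were read against them with no set test.

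**Figure D1:**
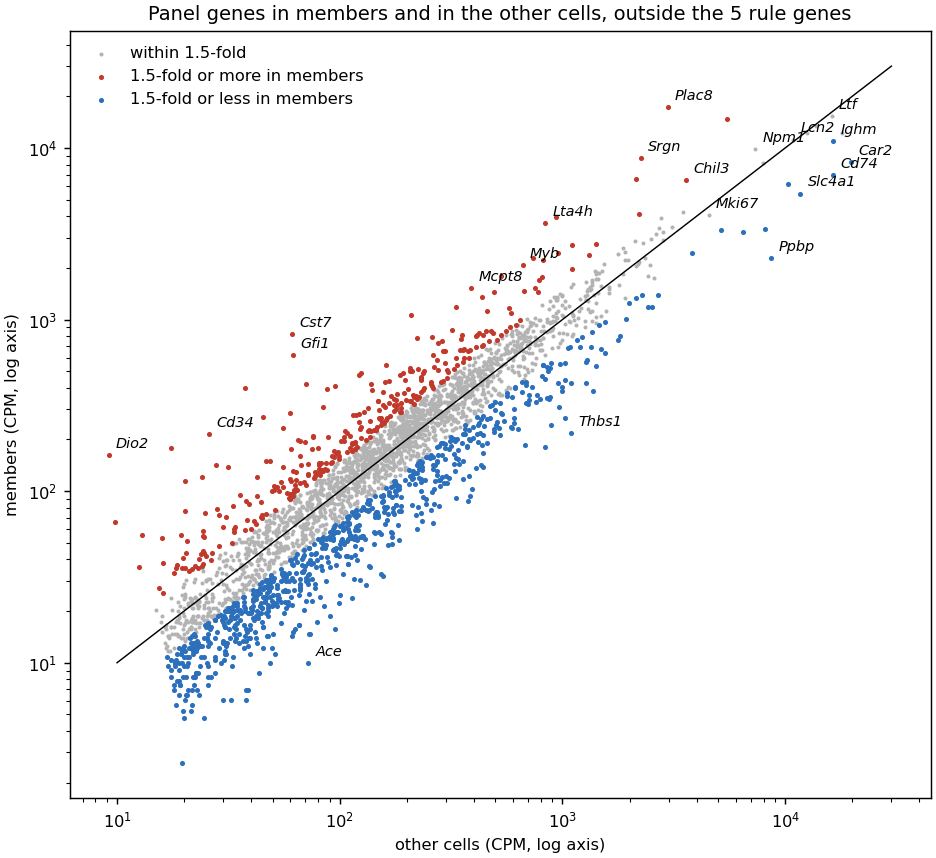
Level of each tested gene outside the rule in the granulocyte-lineage cells (vertical axis, CPM, log scale) and in the other cells of the section (horizontal axis, CPM, log scale), 1 point per gene, with the line of equal levels; the members named on the axis are the granulocyte-lineage cells. Cst7, Gfi1 and Plac8 stand well above the line, Ltf and Lcn2 lie close to it, and Car2, Cd74, Ppbp and Thbs1 lie below it.

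Among genes with at least 500 counts, Cst7, which encodes cystatin F, an inhibitor of lysosomal cysteine proteases, had the highest ratio, with 821 against 61.2 CPM, a ratio of 13.4 (95% interval 12.3 to 14.7). Gfi1, a repressor needed for neutrophil formation, stood at 622 against 61.5 CPM, a ratio of 10.1 (95% interval 9.21 to 11.1). Cd34, a surface marker of progenitors, was at 215 against 25.8 CPM, a ratio of 8.32 (95% interval 7.16 to 9.69), and Prom1, which encodes the progenitor antigen CD133, at a ratio of 5.96 (95% interval 5.41 to 6.57). Plac8, abundant in myeloid progenitors, was the most counted of the leading genes, at 17290.1 against 2968 CPM, and was seen in 69.0% of the selected and 15.3% of the other cells. Both enzymes of leukotriene B4 handling among the leaders, Lta4h, which makes it, and Ptgr1, which inactivates it, had ratios of 4.37 (95% interval 4.24 to 4.50) and 5.09 (95% interval 4.81 to 5.40). The remaining leaders were Plppr3 (10.6), Far2 (10.3), the glutamate receptor subunit Gria3 (6.0), the β-secretase Bace1 (5.14), the HIF prolyl hydroxylase Egln3 (5.01), the scavenger receptor Olr1 (4.75), the mast cell and basophil protease Cpa3 (4.48) and the adhesion gene Ncam1 (4.38). Dio2, a thyroid hormone deiodinase with 372 counts in the selected and 96 in the other cells, had the highest ratio of any tested gene, 17.6 (95% interval 14 to 22.3), and is named after its value was seen.

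Genes known from vessels and platelets were among the 10 lowest ratios. Thbs1, a platelet and matrix protein, stood at 219 against 1089 CPM, a ratio of 0.201 (95% interval 0.183 to 0.220). The others were Ace (0.139), Sema3a (0.164), the junctional gene F11r (0.202), the natriuretic peptide receptor Npr1 (0.202), the lymphatic receptor Flt4 (0.206), Galnt15 (0.206), Shank3 (0.207), the lymphocyte and platelet receptor Cd226 (0.210) and P-selectin, Selp (0.215). For some genes the direction was the same over the section. In 41 squares of 500 µm with at least 100 selected cells, the ratio was above 1 in all 41 for Gfi1, Plac8, Srgn, Cd63 and Myb, with lowest values of 5.74, 3.96, 2.68, 1.78 and 1.42, and below 1 in all 41 for the erythroid gene Slc4a1. It went both ways for Ltf, above 1 in 13 squares and below 1 in 28, and for Mki67, above 1 in 11 and below 1 in 30. The squares are parts of the same cells that gave the whole-section ratios, so they are not replicates of them.

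Early granulocyte genes were higher more often than late granule or mature neutrophil genes. Of 8 tested early granulocyte genes outside the rule, 5 reached 1.5-fold (list median 2.42), among them Plac8, the granule proteoglycan serglycin (Srgn, ratio 3.90, 3.83 to 3.98), the granule membrane protein Cd63 (3.11, 3.05 to 3.18) and Cst7. Lysozyme (Lyz2), which is shared with later cells and monocytes, stood at 12200.1 against 12510.1 CPM, and Ctsc, the protease that activates the serine proteases of the granules, at 1253 against 1421 CPM. Of 11 late granule genes, 3 were higher and 2 lower by that fold (median 1.03). Ltf was at 15363 against 16159.5 CPM and Lcn2 at 11194 against 10851 CPM, close to equal. The other cells include the 31082 with 3 or more counts of late neutrophil genes, Ltf and Lcn2 among them. Chil3 had a ratio of 1.82 (95% interval 1.79 to 1.86), and the gelatinase Mmp9 was lower, at 0.430 (95% interval 0.403 to 0.459). The list also holds the leukotriene B4 receptor Ltb4r1, a receptor and not a granule protein, with a ratio of 2.10 (95% interval 1.93 to 2.28). The summed late granule ratio was 1.07 (1.06 to 1.07) and has no settled direction, since it was 0.835 with a minimum of 5 rule counts, 0.748 as the mean of cell shares and 1.21 against cells that touch no selected cell. None of 17 mature neutrophil genes was higher by 1.5-fold, and 8 were lower (median 0.714), including the formyl peptide receptor Fpr2 (0.535, 0.492 to 0.580), the chemokine receptor Cxcr2 (0.469, 0.420 to 0.523), Mxd1 (0.563, 0.530 to 0.597) and Mmp25 (0.653, 0.581 to 0.732). Their summed ratio was 0.867 (0.849 to 0.884). It was 0.553 as the mean of cell shares and 0.941 with cells thinned to 50 counts. The integrin Itgam was at 699 against 646 CPM.

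Of 40 blood transcription factors (median ratio 1.05), 10 were higher and 10 lower. Those with the most counts among the higher were Myb, a progenitor regulator (2085 against 663 CPM, ratio 3.15, 3.03 to 3.26), Spi1, which encodes PU.1 (1.85, 1.75 to 1.95), Myc (2.27, 2.13 to 2.41) and Gfi1. Cebpa, the factor at the entry to the granulocyte lineage, named after its value was seen, had a ratio of 2.78 (95% interval 2.56 to 3.02). Ikzf1 was at 1287 against 1304 CPM and Lmo2 at 1026 against 1172 CPM. Klf1 and Gata1, regulators of red cell genes, were lower, with ratios of 0.409 and 0.382. Of 28 cytokine and growth factor receptors (median ratio 0.888), 3 were higher and 8 lower, near the shares over all tested genes. The higher ones were the interferon-γ receptor Ifngr1 (1.98, 1.88 to 2.09), the TNF receptor Tnfrsf1a (1.59, 1.51 to 1.68) and Kit (2.36, 2.14 to 2.60). The G-CSF receptor Csf3r was at 454 against 338 CPM and the retention receptor Cxcr4 at 1307 against 944 CPM. Of 24 adhesion and surface genes (median ratio 0.875), Cd34 and Cd93 were higher and 6 lower. Of 16 stem and progenitor genes (median ratio 1.05), 5 were higher, led by counts by Myb, the G1 kinase Cdk6 (3.52, 3.30 to 3.74), Kit and Cd34, and 6 were lower.

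Genes of ribosome biogenesis were above the level of the other cells. All 7 tested ribosome biogenesis genes had ratios between 1.30 and 1.59 (median 1.40), and 3 passed 1.5-fold, Fbl, Gar1 and Ddx56. Nucleophosmin (Npm1) stood at 9802 against 7339 CPM. Of 18 secretory pathway genes (median ratio 1.17), 3 were higher, the disulfide isomerases Pdia3 (1.87, 1.83 to 1.92) and P4hb (2.74, 2.64 to 2.83) and the stress sensor Ern1 (2.25, 2.04 to 2.47), and Ddit3, a gene of the terminal stress response, was lower (0.617). Of 11 oxidase and redox genes (median ratio 1.08), Ncf1 (1.95, 1.89 to 2.01) and Ncf4 (1.88, 1.78 to 1.98), cytosolic parts of the phagocyte oxidase, and G6pdx (1.58, 1.39 to 1.81), which supplies NADPH, were higher, while the membrane part Cybb was at 1468 against 1287 CPM and heme oxygenase Hmox1 was lower (0.574). Of 26 innate sensing genes (median ratio 0.838), Card9 (3.92, 3.61 to 4.25), Gsdmd (1.56, 1.47 to 1.66) and Cgas (2.36, 1.81 to 3.08) were higher and 9 lower, among them Isg15 (0.408).

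Most cell cycle genes stayed within 1.5-fold of the other cells. Of 15 S phase genes (median ratio 1.17) 3 were higher, Hells, Brip1 and Ung, and Ccne1 was lower. Of 28 G2 and M phase genes (median ratio 1.22) 3 were higher, Cks1b, Foxm1 and Kif20b, each close to 1.5-fold. Mki67 stood at 4060.2 against 4541 CPM and Top2a at 1582 against 1354 CPM. The summed G2 and M ratio was 1.06 (1.05 to 1.08), and it was 1.85 when cells with 3 or more counts of erythroid genes were taken out of the comparison, and 0.960 for selected cells with 20 or more rule counts.

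Genes of other lineages were lower in most lists. Of 13 erythroid genes all 13 were lower, with ratios between 0.382 and 0.520 (median 0.420). The lower genes numbered 14 of 15 for B cells, 17 of 19 for T and NK cells, 3 of 6 for plasma cells, 12 of 15 for dendritic cells, 11 of 12 for megakaryocytes (median 0.263), 11 of 13 for endothelium, 9 of 16 for macrophages and 7 of 16 for stroma and bone, and none of these lists held a gene higher by 1.5-fold. The summed erythroid level was 21911 CPM in the selected and 50143 CPM in the other cells, so erythroid transcripts were present in the selected cells too. A minimum of 3 counts of erythroid genes was met by 12.1% of the selected and 18.4% of the other cells. Thinned to 50 counts, with a minimum of 2, these shares were 9.98% and 24.2%. Monocyte genes were mixed, with 1 lower and 2 of 14 higher (median ratio 0.964), F13a1 (2.55, 2.47 to 2.63) and Klf4 (1.57, 1.35 to 1.83). The list of eosinophil, basophil and mast cell genes had 5 of 9 higher (median ratio 2.37), among them the basophil proteases Prss34 (2275 against 737 CPM, ratio 3.09, 2.98 to 3.20) and Mcpt8 (1525 against 389 CPM, ratio 3.92, 3.74 to 4.10).

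The cells were then ordered by how many rule counts they held, a range cut by the rule's own measure, in steps of 3 to 4, 5 to 9, 10 to 19, 20 to 49 and 50 or more, with 4585, 4960, 3735, 3084 and 1036 cells. The median depth moved with it, from 84 counts at the lowest step to 329 at the highest, and the median nucleus from 17.8 to 28.2 µm². Gfi1 went from 228 CPM at 3 to 4 counts to 534 at 10 to 19 and 1324 at 50 or more, and cells with no rule count held 49.1 CPM. Over the same steps Cst7 went from 263 to 1901 CPM, Plac8 from 8298 to 31424, Srgn from 2969 to 19714 and Myb from 1019.9 to 4204. In CPM these 5 genes, and also Cebpa, Npm1 and Pdia3, were higher in each step than in the step before. Thinned to 50 counts per cell and given per 1000 of all counts, rule genes included, this order held for all of them except Gfi1 and Cebpa. Gfi1 was 0.967 at 20 to 49 rule counts and 0.907 at 50 or more, and Cebpa 0.266 at 3 to 4 and 0.247 at 5 to 9.

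**Figure D2:**
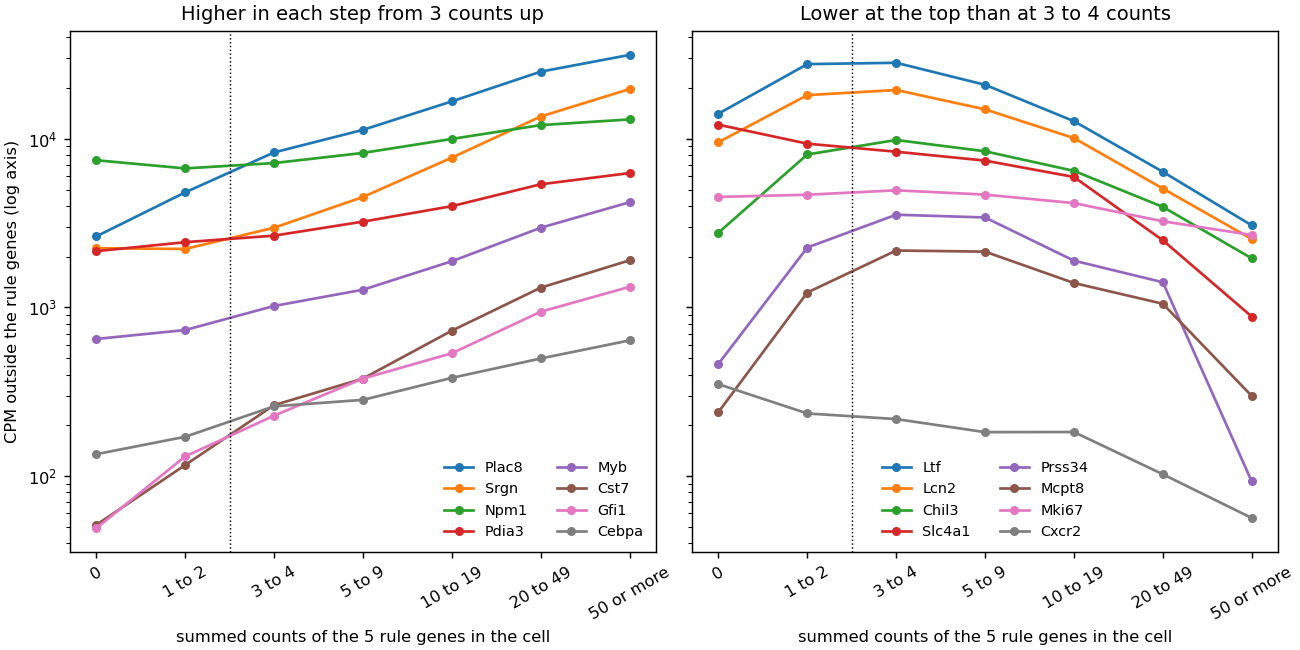
Level of 16 genes outside the rule (CPM, log scale) in cells grouped by their summed counts of the 5 rule genes, with the dotted line at the selection threshold of 3. Gfi1, Cst7, Plac8 and Srgn go up across all selected groups, while Ltf, Lcn2 and Chil3 are highest around 1 to 4 rule counts and low in the cells with 50 or more.

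The summed late granule list went the other way, from 63935 CPM at 3 to 4 counts to 9298 CPM at 50 or more. Ltf was 14086 CPM in cells without a rule count, 28222 at 3 to 4 counts and 3066 at 50 or more, and Lcn2 was 9543, 19462 and 2545 CPM. Thinned in the same way, Ltf was 30.8 per 1000 counts at 3 to 4 rule counts and 2.24 at 50 or more, and Plac8 8.64 and 24.9. Ltb4r1, also in the late granule list, was higher at the top step, at 0.260 and 0.560. The summed erythroid list fell by step from 33728 to 5412 CPM and the B cell list from 19482 to 5362 CPM, so among the selected cells those with few rule counts held the most transcripts of these 2 lineages. The basophil proteases Mcpt8 and Prss34 were highest at 3 to 4 counts, with 2175 and 3545 CPM, and at 50 or more they were at 299 and 92.9 CPM. Mki67 was 4946 CPM at the lowest step and 2688 at the highest.

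The cells also differed in the share of Fcnb among their rule counts. In 10080 cells (57.9%) no Fcnb was seen, in 5645 (32.4%) Fcnb made up less than 50% of the rule counts, and in 1675 (9.63%), called Fcnb-weighted here, it made up at least 50%. These are ranges of a share and not cell types, and 248 and 369 cells on either side lay within 0.1 of the limit. The split and the genes named for it were chosen after values were seen. The median rule count was 7, 14 and 4 in this order. Total depth was similar, with medians of 110, 123 and 109 counts, and the median nucleus was 19.2, 18.5 and 17.8 µm². Of 1115 genes with at least 500 counts in the selected cells, 100 (8.97%) were higher by 1.5-fold in the Fcnb-weighted cells than in the cells without Fcnb and 347 (31.1%) lower.

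Ltf, Lcn2 and Chil3 were highest in the Fcnb-weighted cells. Ltf was at 8427 CPM without Fcnb, 13759.9 CPM in between and 62386 CPM in the Fcnb-weighted cells, a ratio of 7.40 (95% interval 7.22 to 7.59) between the last and the first. Lcn2 was at 5723 CPM without Fcnb, 10632 CPM in between and 45825 CPM in the Fcnb-weighted cells, and Chil3 at 2277 CPM without Fcnb, 7853 CPM in between and 27246 CPM in the Fcnb-weighted cells. Cd177, a surface antigen of neutrophils, had a ratio of 8.95 (95% interval 8.19 to 9.79), and the next highest were Sept5 (7.56), Ly75 (6.06), Chil1 (5.56), Syne1 (5.26), Cybb (4.94), Klf5 (4.87), the 5-lipoxygenase gene Alox5 (4.69) and Itgam (4.39). In the same order, the summed ribosome biogenesis list was at 15187, 9905 and 3749 CPM and the S phase list at 6388, 6229 and 4536 CPM. The G2 and M list went the other way, at 16093, 17221 and 19474 CPM. The monocyte list, which holds Lyz2, was at 16670.5, 15379 and 35363 CPM. Lyz2 alone was at 8852, 11726 and 33849.5 CPM, so the higher list level in the Fcnb-weighted cells rested on this gene. The summed level of the other genes in the list was lower in the Fcnb-weighted cells than in those without Fcnb. Npm1 was at 12178 CPM without Fcnb, 7703 CPM in between and 2959 CPM in the Fcnb-weighted cells, and Myc at 804 CPM without Fcnb, 563 CPM in between and 105 CPM in the Fcnb-weighted cells. Irf8, the regulator of monocyte fate, had a ratio of 0.148 (95% interval 0.0978 to 0.215), F13a1 of 0.121 (95% interval 0.0967 to 0.149), Ms4a6c of 0.147 (95% interval 0.101 to 0.207) and Mcpt8 of 0.0750 (95% interval 0.0532 to 0.103). Cd34 was at 324 CPM without Fcnb, 85.8 CPM in between and 13.6 CPM in the Fcnb-weighted cells, the last resting on 3 counts.

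Leading genes differed between the Fcnb groups. Plac8, Cd34, Gria3 and Cpa3 were highest without Fcnb and Ncam1 in the Fcnb-weighted cells. Gfi1, Cst7 and several other leaders, and also Srgn, were highest in the cells that held Fcnb beside a larger share of other rule genes. This group also had the highest median rule count, 14 against 7 without Fcnb and 4 in the Fcnb-weighted cells. The genes named next were higher in CPM in cells with more rule counts, and the part of the rule count in this order was not tested. Gfi1 was at 406 CPM without Fcnb, 1047 CPM in between and 418 CPM in the Fcnb-weighted cells, Cst7 at 769 CPM without Fcnb, 1111 CPM in between and 123 CPM in the Fcnb-weighted cells and Srgn at 7619.8 CPM without Fcnb, 12822 CPM in between and 1195 CPM in the Fcnb-weighted cells. In the 31082 unselected cells with 3 or more counts of late neutrophil genes (Ltf, Lcn2, Cd177, Ly6g, Csf3r, Cxcr2 and Mmp9), at a median depth of 55 counts, Gfi1 was at 126, Cst7 at 52.5 and Plac8 at 2749 CPM. Those cells held more Fpr2 (1498 CPM) and Mxd1 (1545 CPM), genes outside their gate, than the Fcnb-weighted cells, which held 545 and 804 CPM. Chil3 was higher in the Fcnb-weighted cells, at 27246 against 12278 CPM. Taken only over cells with 10 or more rule counts, 154 were Fcnb-weighted and 4025 without Fcnb. The ratio between these was 9.12 for Ltf, 11.4 for Lcn2, 0.155 for Npm1 and 0.0256 for Myc. For Gfi1, Cst7 and Srgn it was 1.27, 0.128 and 0.131, with the group in between left out.

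**Figure D3:**
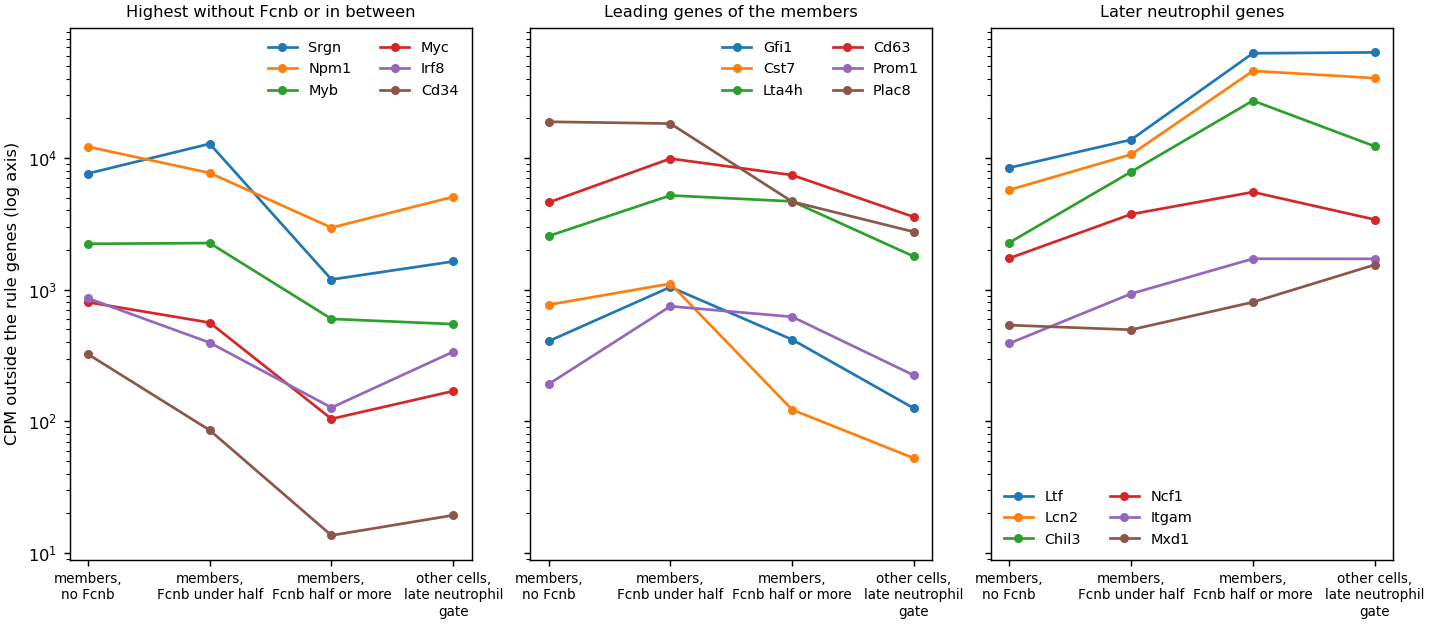
Level of 18 genes (CPM, log scale) in granulocyte-lineage cells without Fcnb, with Fcnb under 50% and with Fcnb at 50% or more of their rule counts, and in unselected cells with 3 or more counts of late neutrophil genes. Srgn, Gfi1 and Cst7 are highest in the second group, and Ltf, Lcn2 and Chil3 are higher in the Fcnb-weighted and the unselected cells than in those without Fcnb, where Ltf and Lcn2 are themselves genes of the late neutrophil gate.

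Some of the selected cells carried counts of another class. A minimum of 3 counts of late neutrophil genes was met by 30% of them (29.3 to 30.7) and 24.6% of the other cells, and by 82.1% of the Fcnb-weighted cells. Thinned to 50 counts, with a minimum of 2, it was met by 25.3% of the selected and 22.9% of the other cells. For monocyte genes the shares were 6.22% (5.86 to 6.59) and 1.89%, and thinned to 50 counts, with a minimum of 2, 3.04% and 2.43%. For Mcpt8, Prss34, Cpa3 and Ms4a2, a set chosen after values were seen, they were 2.06% (1.86 to 2.29) and 0.752%, and thinned 1.78% and 0.887%. Of 585 cells with 10 or more counts of these 4 genes, 229 (39.1%) were selected. The selected ones had mean rule counts of 2.65 for Ctsg, 0.380 of Elane, 0.541 of Prtn3, 5.06 of Mpo and 0.214 of Fcnb, so Ctsg was above and Elane below the mean of all selected cells. Selected cells that met the monocyte minimum had means of 2.80 Ctsg, 11.4 Mpo, 3.97 Prtn3, 2.16 Elane and 0.364 Fcnb counts. Their median rule count was 11, against 8 for all selected cells, so Ctsg was not the only rule gene with a higher mean. No minimum of any class was met by 48.4% of the selected cells.

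The selected cells were often next to each other. Contacts were the edges of a Delaunay network over the cell centres, up to 400 µm. Selected cells made up 38.9% against 8.60% of the neighbours of selected and of other cells, a ratio of 4.52. Counted over all cells within 40 µm, the ratio was 1.55, with 22.3 ± 11.7 selected cells around a selected cell and 14.5 ± 9.85 around another cell (SD over cells). The median distance to the nearest selected cell was 5.47 µm from a selected and 12.6 µm from another cell. Joined over contacts of up to 30 µm, the cells formed 4158 patches, the largest of 94 cells, with 43.4% of the cells in patches of 10 or more and 9.22% alone. With a minimum of 10 rule counts, 14.1% of 7855 cells were in patches of that size. The part of adjoining transcripts in these contacts was not tested, and the values that bear on it are the rule counts of unselected neighbours above.

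**Figure D4:**
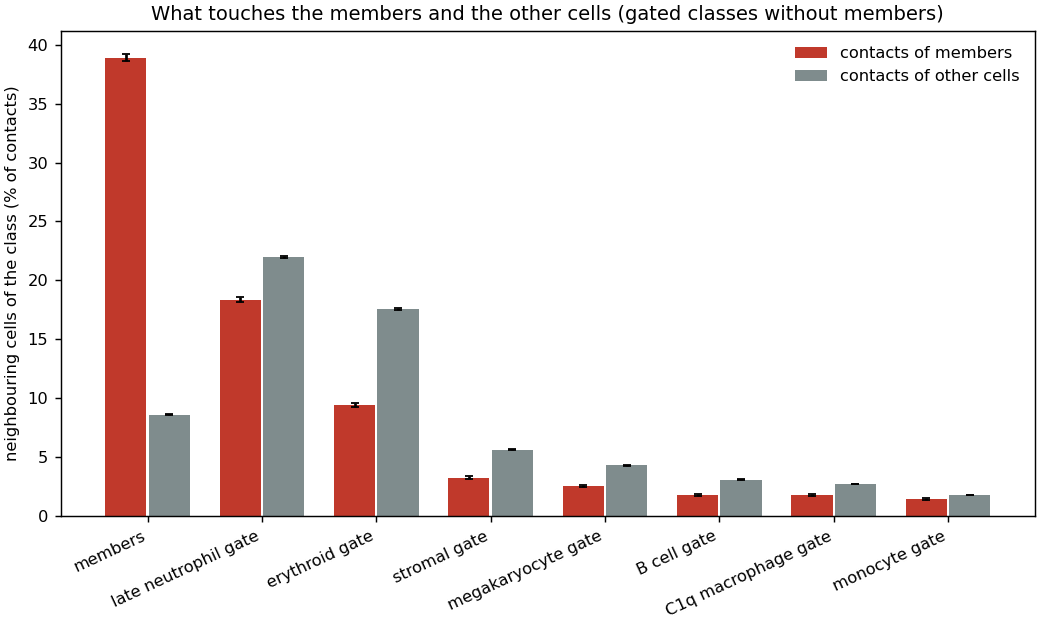
Share of contacts (%) that the granulocyte-lineage cells (red) and the other cells (grey) have with each class, with exact 95% intervals of counting error; gated classes hold unselected cells with 3 or more counts of the class's genes. Contacts with selected cells are far more frequent around selected cells, and those with erythroid, stromal and megakaryocyte gates are less frequent. The gated classes leave out selected cells, so their shares have less room around selected cells. With selected cells included, the stromal shares were close to equal, at 5.46% and 6.19%.

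Gated classes were compared over unselected cells with 3 or more counts of the class's genes. Those of the erythroid gate made up 9.38% against 17.6% of the contacts of selected and of other cells, those of the megakaryocyte gate 2.54% against 4.29%, those of the stromal gate 3.23% against 5.61% and C1q macrophages 1.79% against 2.70%. Since more of the neighbours were selected cells, these shares had less room. With selected cells that met the gate included, the shares were 13.6% against 18.7% for erythroid and 3.38% against 4.57% for megakaryocyte genes. They were 5.46% against 6.19% for stromal genes and 2.83% against 2.97% for C1q macrophages, close to equal. The late neutrophil gate changed order, with 18.3% against 22.0% over unselected cells and 28.9% against 24.7% with selected cells included. The Fcnb groups differed in their surroundings. Among the neighbours of Fcnb-weighted cells 26.4% were selected and 32.3% were unselected late neutrophil cells, compared with 37.2% and 16.6% for cells without Fcnb and 45.5% and 17.4% for the group in between. Fcnb-weighted cells were 8.86% of the neighbours of Fcnb-weighted cells and 1.12% of those of cells without Fcnb. Of the Fcnb-weighted cells 25.8% touched no selected cell, against 8.81% of those without Fcnb.

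Levels of genes outside the rule differed with the number of contacts among the selected cells, in both directions. Gfi1 was at 267 CPM in the 1593 cells that touched no other selected cell and 886 CPM in the 7600 with 3 or more such contacts. In the same order Cst7 was at 432 and 1071 CPM, Plac8 at 13572 and 19711 and Srgn at 4835 and 11447. Cd34 was higher without a contact, at 303 and 209.6 CPM, and was at 199.5 CPM in the 8207 cells with 1 or 2 contacts. Ltf was at 24800.5 and 12588 CPM and Mcpt8 at 3583 and 727 CPM. The median rule count was 5 in the former and 11 in the latter, with median depths of 132 and 113 counts. Among unselected cells, Gfi1 was at 89.1 CPM in those with a selected neighbour and 48.2 CPM in those without. In the same order Cst7 was at 83.8 and 50.4 CPM, Plac8 at 3633 and 2650, Ltf at 20297 and 14176.5 and Srgn at 2236 and 2243. The part of adjoining transcripts in these levels was not tested.

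**Figure D5:**
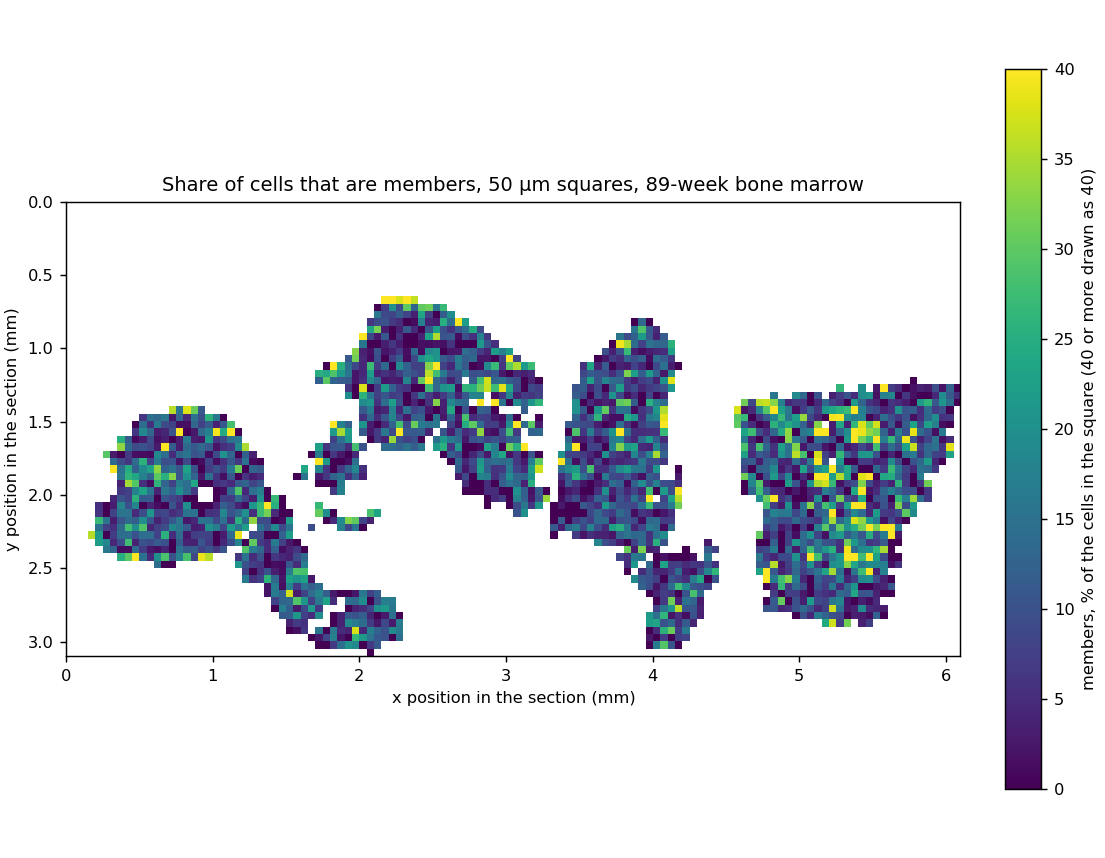
Share of cells that met the rule (colour, %) in 50 µm squares with at least 10 cells, by position in the 89-week bone marrow section (mm). Squares of high share are scattered over the section, with the highest at 65.3%, and shares of 40% or more are drawn as 40.

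Over 47 squares of 500 µm with at least 200 cells, the share ran from 4.04% to 18.7%, with a median of 11.8%. In squares of 50 µm with at least 10 cells, 284 of 2439 held none and 288 were above 25%, as the map of the section shows. By distance from the outline of a tissue piece, the share was 14.7% (13.9 to 15.4) within 25 µm, 13.7% at 25 to 50 µm, 11.9% at 50 to 100 µm, 10.8% (10.5 to 11.1) at 100 to 200 µm and 12.6% beyond. The median depth was 83.5 counts within 25 µm and between 58 and 62 in the other bands. With cells thinned to 50 counts the shares were 11.7%, 13.9%, 12.3%, 11.7% and 13.4%, so the band with the highest share was then the one at 25 to 50 µm. Within 10 µm of 852 cells with 3 or more counts of the bone genes Col1a1, Col1a2, Ibsp, Bglap, Sp7 and Alpl, a set and measure chosen after values were seen, 15.6% (14.4 to 16.9) of 3383 cells were selected, and beyond 80 µm 11.2% (11 to 11.5). Thinned, these were 13.7% and 12.1%, at median depths of 73 and 57 counts before thinning. The highest thinned share was then at 10 to 20 µm, at 14.6%, and not in the band nearest to these cells. The marrow had been taken out of the bone, so its outline is not the bone surface throughout.

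The same rule was applied to 2 other wild-type sections, the E13.5 fetal liver, imaged in the same run on the same panel, and to the P8 bone marrow, read on a smaller panel with 4 of the 5 genes and other segmentation. It took 117 of 5285 liver cells, 2.21% (1.83 to 2.65), at a median depth of 190 counts over all cells against 60 in the marrow. Thinned to 50 counts, over cells that held as many, the shares were 0.760% in the liver and 12.5% in the marrow. Without Prtn3 the rule took 11.1% of the 89-week and 13.2% of the P8 marrow cells, values set side by side only, as panel, depth and segmentation differ. Over the cells of this 4-gene rule, mean Elane was 2.26 counts in the 89-week and 3.97 in the P8 marrow, and mean Ctsg was 1.84 and 0.545. In the liver cells of the 5-gene rule Mpo gave a mean of 11.1 raw counts and Fcnb 0.197, against 8.05 and 1.13 in the marrow. The selected liver cells were deeper, with a median of 341 counts against 114 in the selected marrow cells. These means were not set to equal depth, so they do not rank Mpo between the 2 tissues. Among 44309 counts outside the rule genes in the selected liver cells there were 11 of Ltf and 3 of Lcn2, while Plac8 was at 6455 CPM, 37.4 times the other liver cells (31.3 to 44.7), and Cd34 at 745 CPM, 8.11 times (5.34 to 12.0).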

How the data were processed

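The authors deposited, for each section, raw counts of decoded transcripts per gene and cell as the instrument's software wrote them. For the 89-week marrow the software was Xenium Onboard Analysis 3.1.0.4 per the file headers, with cell and nucleus outlines from a multi-stain segmentation. The area of each outline and the cell position are other deposited values, in µm² and µm. Only raw counts were used, without removal of adjoining transcripts. Members and gene lists were chosen with earlier results of these data known. Counts of the 89-week marrow (13053261 over 143810 cells, with 94.9% of the decoded transcripts in a cell) were summed over selected and other cells and divided by the counts outside the 5 rule genes. Intervals of 95% are exact (Clopper-Pearson for shares, conditional binomial for ratios). Cells are not replicates, so no test was run. Alternatives were other rule minimums, thinning, means of cell shares, other sets of comparison cells, other count minimums and other neighbour distances. The ratio code was tested on simulated counts. Named genes were the 15 highest and 10 lowest ratios with at least 500 counts and, per list, up to 4 past 1.5-fold and 2 others by counts. Python 3.11.15, numpy 2.4.6, pandas 2.3.3 and scipy 1.17.1 were used. The cell names of the marrow and the E13.5 liver had 0 entries in common, and those of the marrow and the P8 marrow 2. Spleen and E14.5 liver files were not used. Some genes that the naming rule takes are not reported here.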

Additional observations from a re-analysis of the deposited data

How the results depend on the processing

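The share of selected cells, 12.1% in the section, was 15.1% at a minimum of 2 rule counts, 8.91% at 5, 12.4% among cells with at least 5 detected genes and 12.5% with cells thinned to 50 counts. The genes at 1.5-fold or less numbered 1788 of 5045 tested (35.4%) without a minimum count and 387 of 2115 (18.3%) at 1000 counts. In the main setting the share was 24.7%, so the share moved as well as the number tested. Those at 1.5-fold or more numbered 617 when only cells with 20 or more rule counts were taken, an alternative added after seeing the data. Both numbers stayed within 1.5 times of 324 and 773 under the other settings. For the late granule, mature neutrophil and G2 and M genes, the summed ratios were 0.835, 0.828 and 1.04 at 5 rule counts, 0.422, 0.725 and 0.960 at 20, 0.748, 0.553 and 1.27 as means of cell shares, and 0.841, 0.726 and 1.85 without erythroid-gated cells. The late granule ratio was 1.21 against cells that touch no selected cell and 1.15 when thinned, where the mature neutrophil ratio was 0.941. The cause of these shifts was not tested. At a minimum of 10 rule counts, added after seeing the data, 154 Fcnb-weighted cells remained for the levels given for them. The neighbour ratio was 1.55 within 40 µm and 5.06 at 5 rule counts. The nuclear ratio was 1.14 at 5 rule counts and 0.961 where cells under 50 counts were left out. The fetal liver share was 1.44% at 5 rule counts and 0.760% thinned. None of the 25 leading and lowest genes changed direction under the 5 settings tried for them. No paired analysis was possible because each condition had 1 section and no test was run.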
